A study of Mus musculus with 6 samples.

Results

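The genes described here are 34 genes of DNA replication and of the G1/S transition of the cell cycle, measured in cultured mouse keratinocytes with and without Gpx4, the glutathione peroxidase that reduces phospholipid hydroperoxides. The genes were named in a list chosen by function, and each was read from the probe set that carried its symbol alone and had the highest mean over the 6 arrays. Of the 34, 33 had such a probe set among the 45037 probe sets tested. Chaf1a was not matched to a probe set of 1 gene and is not analysed here.

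The cells were primary keratinocytes isolated from newborn mouse skin (genetic background C57BL6/FVB) and all kept in media with 100 nM sodium selenite. The knockout group, labelled Gpx4 KO, came from mice in which a Keratin-14 promoter drives Cre, so that Gpx4 is removed in keratinocytes and in other cells in which that promoter is active. The labels call the other group control and say nothing further of its genotype. Each group had 3 samples, 1 from each of the litters A, B and C, and each sample pooled cells of several mice of 1 genotype within a litter. Total RNA was labelled with biotin and hybridised to single-channel expression arrays, and the comparison asks how loss of Gpx4 alters transcript levels in these cells.

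DNA is copied once in each cell cycle because origins are prepared and fired at separate times. In G1, the origin recognition complex, Cdc6 and Cdt1 load the Mcm2 to Mcm7 helicase onto DNA, a step called licensing. At the start of S phase, kinases, Cdc45, the GINS complex and Mcm10 turn the loaded helicase into a moving fork, where the clamp Pcna, its loader, primase and the polymerases copy both strands. Many of these genes are transcribed by E2F factors, which the retinoblastoma protein holds back until cyclin D and cyclin E kinases release them. In the epidermis these genes are used by the dividing basal cells and are shut down as cells differentiate.

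Because E2F control is what many of these genes are known to share, their promoters were searched for it. RefSeq promoter windows of 300 bases on GRCm38.p6, from 250 bases before to 50 bases after the gene start, were found for 30 of the 34 genes, in 35 windows. The search used the 4 words TTTCCCGC, TTTCGCGC, TTTGCCGC and TTTGGCGC on both strands. Such a word was present in 13 of the 30 genes (43.3%) and in 37.1% of their windows, against 2.26% of the 32851 mouse promoter windows in the table. The word CCAAT, a box common in cell-cycle promoters, was present on either strand in 57.1% of the windows of these genes and in 37.4% of all windows. Of 53 windows of further replication genes outside the set, 22.6% held an E2F word and 45.3% held CCAAT. Of 35 windows of genes that act in mitosis, 8.57% held an E2F word and 82.9% held CCAAT. These counts describe letters in a window, and a match is not a measured binding site.

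The promoters of 5 genes are shown for that shared word, each as the 200 bases that end just before the gene start, 5′ to 3′ along the gene, with the E2F word in capitals. They belong to Orc1 (chr4:108579254-108579453, plus strand), Cdc6 (chr11:98907951-98908150, plus strand), Mcm5 (chr8:75109309-75109508, plus strand), Mcm6 (chr1:128359706-128359905, minus strand) and Pola1 (chrX:93632156-93632355, minus strand).
Orc1: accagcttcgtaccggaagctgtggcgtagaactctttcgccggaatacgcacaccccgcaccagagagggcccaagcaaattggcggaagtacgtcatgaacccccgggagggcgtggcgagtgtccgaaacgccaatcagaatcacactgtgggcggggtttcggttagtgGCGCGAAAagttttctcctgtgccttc
Cdc6: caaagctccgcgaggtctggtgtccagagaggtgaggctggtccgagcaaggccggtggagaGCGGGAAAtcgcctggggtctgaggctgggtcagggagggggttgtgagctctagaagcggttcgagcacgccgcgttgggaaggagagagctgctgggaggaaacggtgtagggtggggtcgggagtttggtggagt
Mcm5: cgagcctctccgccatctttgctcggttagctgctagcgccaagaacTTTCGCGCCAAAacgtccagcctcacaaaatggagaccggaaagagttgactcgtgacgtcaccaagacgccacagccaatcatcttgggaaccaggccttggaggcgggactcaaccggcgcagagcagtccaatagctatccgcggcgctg
Mcm6: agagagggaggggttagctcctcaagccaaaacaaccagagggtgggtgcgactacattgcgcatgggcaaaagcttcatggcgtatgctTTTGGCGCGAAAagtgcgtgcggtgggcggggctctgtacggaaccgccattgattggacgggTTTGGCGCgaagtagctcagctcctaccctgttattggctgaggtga
Pola1: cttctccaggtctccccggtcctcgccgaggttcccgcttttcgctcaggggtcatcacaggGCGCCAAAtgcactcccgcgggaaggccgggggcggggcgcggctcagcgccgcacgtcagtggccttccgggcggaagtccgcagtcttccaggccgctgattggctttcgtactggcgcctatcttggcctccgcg
In Orc1 the word lay 27 bases before the start. Cdc6 and Pola1 each held 1 word, 138 bases before the start in both genes. Mcm5 and Mcm6 held 2 words that overlap on opposite strands and so print as 1 longer run, and Mcm6 held another 47 bases before the start. The other genes with a match were Mcm3, Mcm7, Cdt1, Rfc3, Pold1, Pole2, Lig1 and Uhrf1, and in Mcm3, Cdt1, Pold1, Pole2 and Lig1 the matches lay only in the 50 bases after the start.

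**Figure D1:**
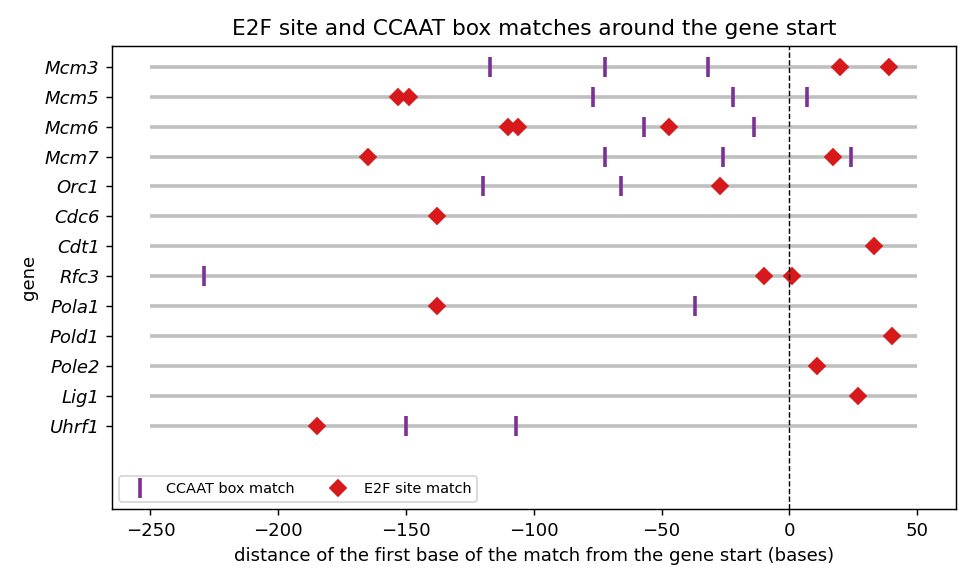
Positions of E2F words (red diamonds) and CCAAT words (purple bars) in the promoter windows of the 13 genes that held an E2F word; the horizontal axis is the distance in bases from the gene start (dashed line), and each grey line is 1 window of 300 bases. E2F words lay within the 200 bases before the start or in the 50 bases after it.

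Values in the text are array intensities after quantile normalization across the 6 arrays, and a log2 change is knockout minus control of log2(intensity + 16) within litters, with its standard error, so that changes of dim probe sets are understated. Values by array are listed in the order of litter A, litter B, litter C. Gpx4 itself read 496, 551 and 536 in controls and 212, 260 and 216 in knockouts. Every knockout lay below every control (log2 change -1.15 ± 0.09, adjusted p = 0.0208, limma with Benjamini-Hochberg adjustment over all probe sets; 0.15 without litter A and 0.276 without litter B). A second, dimmer Gpx4 probe set also had every knockout below every control but did not pass (-1.40 ± 0.21, adjusted p = 0.063, limma). The summed intensity of 8 keratinocyte markers was 27914 to 30303 in controls and 27692 to 28049 in knockouts, and 2 of the 8, Trp63 (log2 change -0.43) and Col17a1 (-0.36), were lower at an unadjusted p below 0.05. The control array of litter C stood apart, with a deposited trimmed mean of 114, against 72.8 to 92.0 on the other arrays. Other cell types also differed between groups: 8 melanocyte markers summed to 4599 to 4768 in controls and to 6390 to 6998 in knockouts, with 7 of the 8 higher at that p and 2 past the adjusted threshold, and 8 fibroblast markers to 292, 266 and 578 in controls and to 422, 496 and 610 in knockouts, with 3 higher and 1 lower at that unadjusted p. Of 6 muscle markers, 4 were higher and 0 lower at that p, with sums of 2256 to 3329 in controls and 2715 to 3023 in knockouts, and 2 of 8 immune markers were higher. Endothelial markers summed to at most 42.3 and immune markers to at most 169.9 on any array, and no marker was at 0 on all arrays. The part of these cells in the results below was not tested. Transcripts of 3 Y-linked genes summed to 247 to 314 in the control pools and to 4.02 to 8.58 in the knockout pools, so that the sex makeup of the pools and the genotype cannot be told apart. In bulk samples, fewer cells of a type and less RNA per cell cannot be told apart either.

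None of the 33 measured replication genes passed an adjusted p of 0.05 in limma, in a comparison that called 189 probe sets, or 0.42% of those tested (71 higher and 118 lower, or 60 and 75 without the litter as a block). Their smallest adjusted p was 0.211. At an unadjusted p below 0.05, 3 genes were higher in knockouts (Orc1, Mcm3 and Rrm2) and 1 was lower (Uhrf1), where the same threshold took 7.04% of all probe sets upward and 7.6% downward. Their log2 changes ran from -0.30 to 0.47 with a median of 0.06, beside a median of 0.00 over all probe sets, and 19 were above 0 and 14 below. On the scale of intensity + 16, the 95% interval of each of the 33 genes lay within a 2-fold change in either direction, and that of 28 lay within 1.5-fold. For dim genes such as Orc1, E2f1 and Tyms the same interval spans a wider change of the intensity itself. The 5 whose intervals reached past 1.5-fold were Orc1, Cdt1, Mcm3, Cdc6 and Cdc45.

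**Figure D2:**
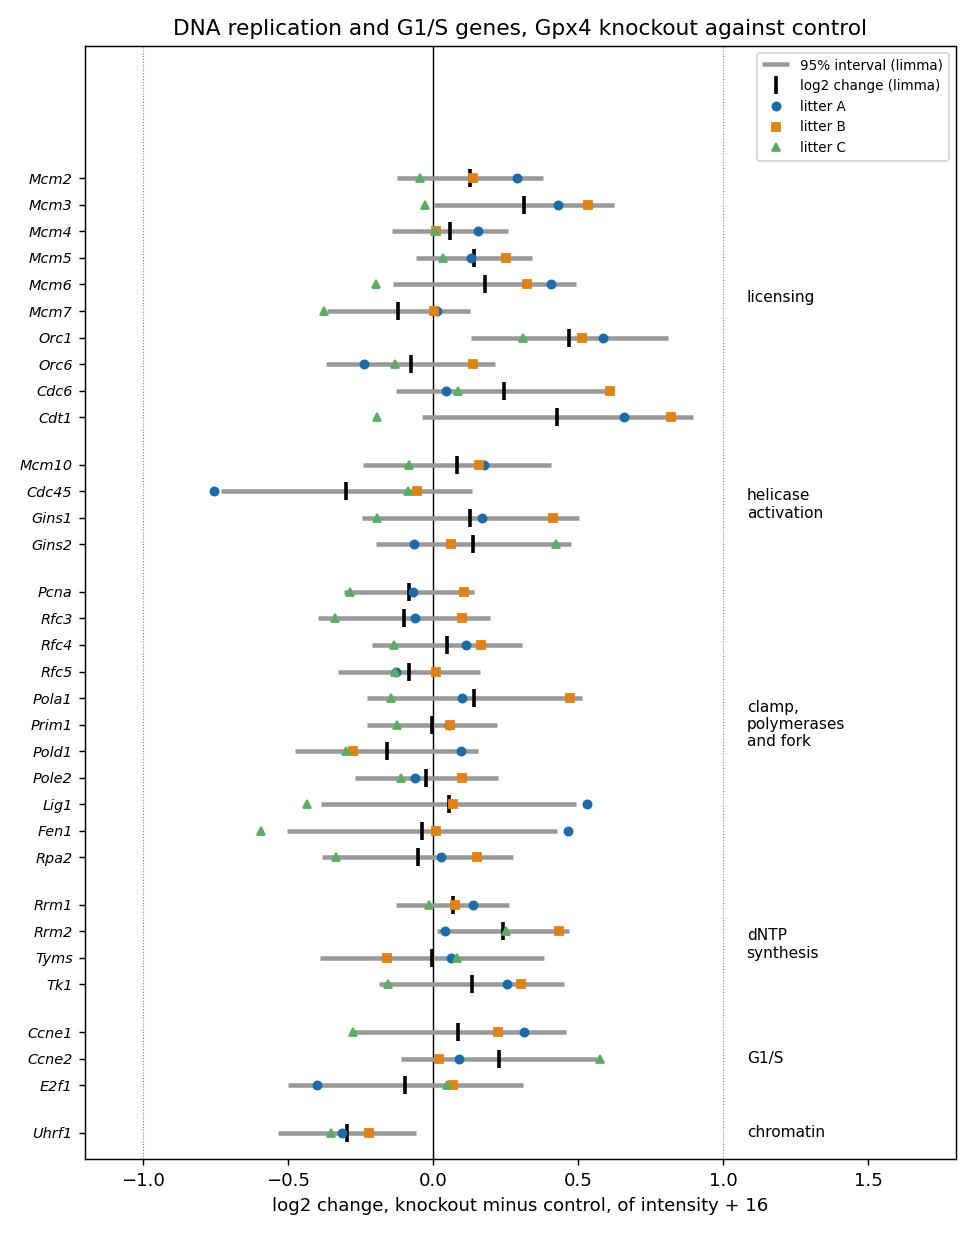
Log2 change of intensity + 16, knockout minus control, for the 33 measured genes grouped by role; black ticks are the limma estimates over 3 litters, grey bars their 95% intervals, and coloured symbols the change in each litter. All intervals lay between the dotted lines at 1 and -1, and the green triangles of litter C lay to the left of 0 for 24 genes.

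The 10 licensing genes had a median log2 change of 0.16, and by the probe set used for each gene the 3 highest log2 changes, of Orc1, Cdt1 and Mcm3, were among them. Orc1, an ATPase subunit of the origin recognition complex whose level is regulated through the cell cycle, had intensities of 28.2, 37.6 and 62.6 in controls and of 50.4, 60.5 and 81.3 in knockouts. The knockout was higher in each litter, while the groups overlapped because the control of litter C was above the knockouts of litters A and B. The log2 change was 0.47 ± 0.14, a ratio of intensity + 16 of 1.38 with a 95% interval from 1.09 to 1.75, and it did not pass the adjustment (adjusted p = 0.211, limma). A second Orc1 probe set gave 0.40 ± 0.18.

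Mcm3, a subunit of the replicative helicase, had intensities of 214, 248 and 411 in controls and of 294, 367 and 403 in knockouts. It was higher in the knockouts of litters A and B and level in litter C, where both arrays were high (log2 change 0.31 ± 0.13, adjusted p = 0.34, limma). Cdt1, the factor that brings the helicase to origins and is destroyed once S phase starts, read 276, 265 and 622 in controls and 444, 480 and 542 in knockouts. The control of litter C was the highest of the 6 arrays, and the controls of litters A and B the lowest. The log2 change was 0.43 ± 0.19 (95% interval -0.04 to 0.89, adjusted p = 0.378, limma), and a second probe set gave 0.48 ± 0.14 (adjusted p = 0.197).

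On the probe sets used, the remaining helicase subunits differed by less. Mcm6 had intensities of 533, 558 and 749 in controls and of 712, 702 and 651 in knockouts, so that the knockouts were higher in litters A and B and lower in litter C (log2 change 0.18 ± 0.13). A second Mcm6 probe set had every knockout above every control, at 414, 405 and 377 against 306, 309 and 345 (log2 change 0.31 ± 0.10, adjusted p = 0.237, limma). Mcm2 gave 0.13, Mcm4 0.06, Mcm5 0.14 and Mcm7 -0.12 on the log2 scale, none past the test. The probe sets of 1 gene did not always give the same value. A second Mcm4 probe set gave 0.33 ± 0.08 (adjusted p = 0.148, limma), while the other 4 of Mcm3 gave 0.34, 0.13, 0.08 and 0.02, and a second one gave 0.09 for both Mcm2 and Mcm5. Further Mcm7 probe sets gave -0.12, 0.05 and 0.24 ± 0.10 (adjusted p = 0.353 for the last, limma). That last one had every knockout above every control, so the direction of Mcm7 was not settled. Over the whole set, 40 further probe sets of 26 genes held 0 past the adjusted threshold, 6 higher and 1 lower at an unadjusted p below 0.05, and 11 with a sign opposite to the one used. That p took 7.04% of all probe sets upward and 7.6% downward. Of the 40, 17 were dim, with a mean intensity of at most 50. Cdc6, the ATPase that recruits Cdt1 and the helicase, gave 0.25 ± 0.16, most of it from litter B, and Orc6, a small subunit of the origin complex, gave -0.08.

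The 4 genes that turn the loaded helicase into a fork had no shared direction. Cdc45, which joins the helicase at the start of S phase, had intensities of 77.2, 67.8 and 65.8 in controls and of 39.1, 64.5 and 60.9 in knockouts. All 3 knockouts lay below all 3 controls, as 9.45% of all probe sets did, but only the knockout of litter A stood clearly lower (log2 change -0.30 ± 0.18, adjusted p = 0.504, limma). The other Cdc45 probe set, dimmer at 17.5 to 40.1, had every knockout above every control, so the direction of Cdc45 was not settled. Gins1, a GINS subunit, read 48.0, 59.2 and 110 in controls and 55.8, 84.0 and 94.4 in knockouts (log2 change 0.13 ± 0.16, adjusted p = 0.768). Its partner Gins2 read 108, 84.2 and 78.6 in controls and 102, 88.4 and 111 in knockouts (log2 change 0.14 ± 0.14, adjusted p = 0.71). For both GINS genes the groups overlapped over most of their range. Mcm10, a scaffold that links the helicase to polymerase alpha, gave 0.08 ± 0.14.

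The 11 genes of the clamp, its loader, the polymerases and the fork had a median log2 change of -0.04. On the probe sets used, each of the 11 was lower in the knockout of litter C than in its control, as were 22253 of all 45037 probe sets. Among second probe sets with a mean above 50, Rpa2 and Rfc4 gave 0.05 and 0.005 in that litter. Rfc3, Prim1, Pold1 and Fen1 gave -0.47, -0.14, -0.93 and -0.35 there. Pcna, the sliding clamp that tethers polymerases to DNA, was among the brightest probe sets of the set, at 1862, 1893 and 2537 in controls and at 1772, 2038 and 2075 in knockouts. Apart from the control of litter C the arrays covered a narrow range, and the log2 change was -0.08 ± 0.09 (95% interval -0.31 to 0.14, adjusted p = 0.74, limma). Pold1, the catalytic subunit of polymerase delta, read 106, 96.6 and 143 in controls and 115, 76.9 and 113 in knockouts (log2 change -0.16 ± 0.13, 95% interval -0.48 to 0.15). Pola1, the catalytic subunit of polymerase alpha that starts each strand with primase, read 59.9, 62.0 and 111 in controls and 65.3, 92.0 and 98.6 in knockouts (log2 change 0.14 ± 0.15). In both polymerase genes the control of litter C was the highest array and the groups overlapped.

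The other 8 genes at the fork had log2 changes close to 0. Rfc3, Rfc4 and Rfc5, subunits of the clamp loader, gave -0.10, 0.05 and -0.08. Prim1, the catalytic subunit of primase, and Pole2, the second subunit of polymerase epsilon, gave -0.01 and -0.02, and Rpa2, a subunit of the single-strand binding protein, gave -0.05. Lig1 and Fen1, the ligase and the flap nuclease that finish lagging-strand fragments, had means near 0 made of opposite litters: Lig1 by litter gave 0.53, 0.07 and -0.44 and Fen1 gave 0.47, 0.01 and -0.59.

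Among the genes of deoxynucleotide supply, Rrm2 had a log2 change above 0 on each of its 3 probe sets. Rrm2 encodes the small subunit of ribonucleotide reductase, whose level limits the enzyme and peaks in S phase. Its brightest probe set read 1336, 1132 and 1316 in controls and 1374, 1532 and 1568 in knockouts. Every knockout lay above every control, as for 8.78% of all probe sets, with a log2 change of 0.24 ± 0.10, a ratio of 1.18 (adjusted p = 0.32, limma). The other 2 probe sets showed wider differences, at 494, 406 and 664 against 653, 716 and 894 (log2 change 0.53 ± 0.11, adjusted p = 0.0998, limma) and at 265, 263 and 384 against 436, 399 and 457 (0.50 ± 0.11, adjusted p = 0.126). None of the 3 passed the test, and the probe set with the smallest difference is the one the rule selects.

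The large subunit of the same enzyme, Rrm1, read 591, 620 and 776 in controls and 651, 655 and 768 in knockouts (log2 change 0.07 ± 0.08, adjusted p = 0.768, limma). Tk1, the thymidine kinase of the salvage route, read 97.4, 105 and 176 in controls and 119, 133 and 157 in knockouts (log2 change 0.13 ± 0.13, adjusted p = 0.708). For both genes the knockouts of litters A and B were above their controls and that of litter C below. Tyms, thymidylate synthase, had the lowest mean intensity of the 33 genes, 21.4, and a log2 change of -0.01.

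The G1/S cyclins and E2f1 gave no common direction. Ccne1, a cyclin that activates Cdk2 at the G1/S transition, read 75.5, 88.7 and 87.5 in controls and 97.7, 106 and 69.3 in knockouts (log2 change 0.09 ± 0.15, adjusted p = 0.855, limma). Ccne2, its close relative, read 139, 159 and 112 in controls and 149, 161 and 175 in knockouts (0.23 ± 0.14, adjusted p = 0.518), with most of the difference in litter C. On these probe sets the 2 cyclins differed in litter C in opposite directions, by -0.28 for Ccne1 and 0.57 for Ccne2. The other, dimmer Ccne1 probe set gave 0.21 in litter C and 0.06 ± 0.14 over the litters. The direction of Ccne1 in litter C was thus not settled. E2f1, an activating E2F factor, read 39.9, 36.4 and 39.4 in controls and 26.3, 38.9 and 41.2 in knockouts, so that only the knockout of litter A was set apart on this probe set (-0.10 ± 0.17, adjusted p = 0.849). A second, dimmer E2f1 probe set was lower in the knockout of each litter, at 32.4, 21.2 and 37.3 in controls and 17.2, 11.9 and 29.6 in knockouts (-0.39 ± 0.16, unadjusted p = 0.0492, adjusted p = 0.34, limma), with overlapping groups.

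Uhrf1, which brings the maintenance DNA methyltransferase to newly copied DNA, was the one gene with an unadjusted p below 0.05 in the downward direction. It read 156, 192 and 282 in controls and 122, 163 and 217 in knockouts. The knockout was lower in each litter, by 0.32, 0.22 and 0.35 on the log2 scale, although litters differed more than genotypes and the groups overlapped (log2 change -0.30 ± 0.10, 95% interval -0.53 to -0.06, adjusted p = 0.249, limma). The second, dimmer Uhrf1 probe set gave -0.04 ± 0.19, with 0.21, 0.28 and -0.60 by litter. It was thus higher in the knockouts of litters A and B, and the direction of Uhrf1 there was not settled.

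**Figure D3:**
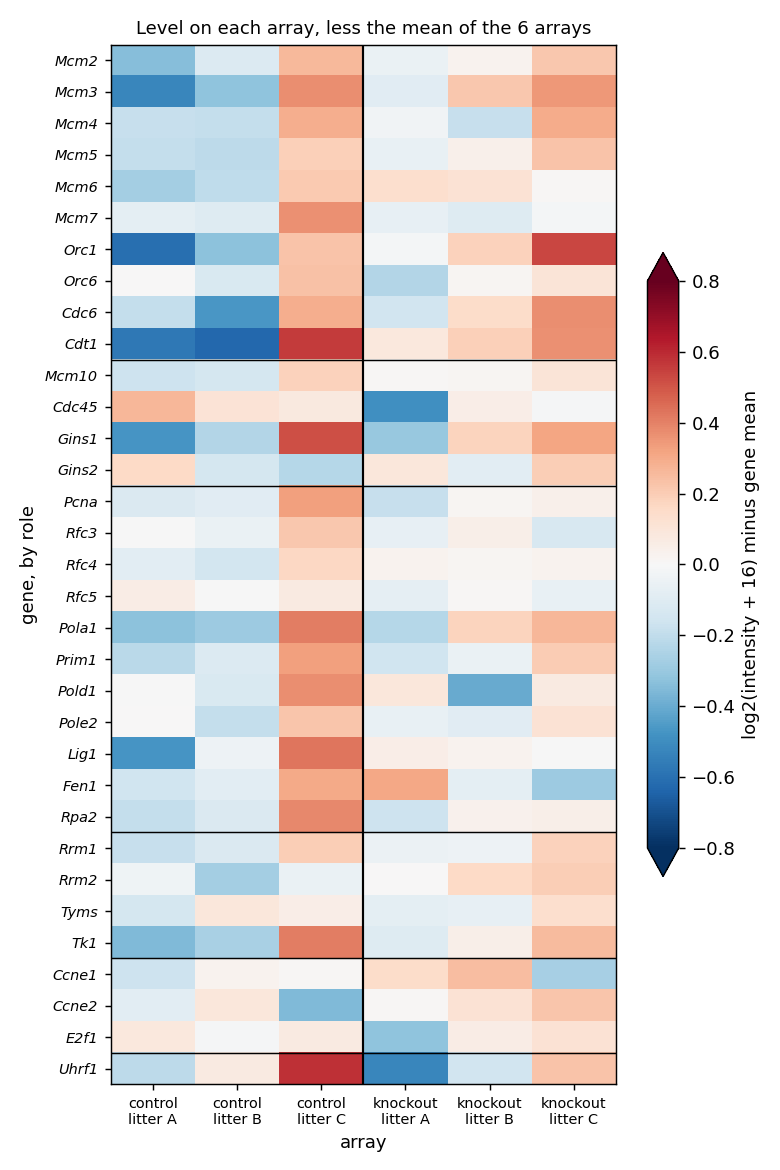
Log2(intensity + 16) of the 33 measured genes on each of the 6 arrays, shown as the deviation from the gene's mean over the 6 arrays (colour scale in log2 units); rows are genes grouped by role and columns are the control and knockout arrays of litters A, B and C. The control of litter C was the highest of the 3 controls for 26 of the 33 genes.

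Across the set, the litters pointed in different directions. Within single litters, the 33 genes had median log2 changes of 0.10 (A), 0.11 (B) and -0.13 (C), and 24, 29 and 9 of them were above 0. In 16 genes the knockout was above its control in both litters A and B and below it in litter C, and in 0 genes was the reverse seen. Of all 45037 probe sets, 5871 had the first pattern and 5731 the reverse. The pattern of a gene can depend on the probe set used. Among the 16 genes, second probe sets of Cdt1, Mcm3 and Mcm6 gave 0.14, 0.10 and 0.12 in litter C. Those of Mcm2, Mcm7, Mcm10 and Fen1 gave -0.37, -0.36, -0.32 and -0.35 there. In all 3 litters, 6 of the 33 genes were higher and 2 lower, beside 8120 and 8242 of all probe sets. The control of litter C stood out here: it was the highest control for 26 of 33 genes (78.8%), against 36.3% of all probe sets and 41.2% of those with a mean intensity above 50. Its median excess over the mean of the other controls was 0.43 on the log2 scale, where the knockout of litter C exceeded the other knockouts by 0.21. This is the array with the highest deposited trimmed mean and with the highest fibroblast marker sum among the controls, and their part in the pattern was not tested.

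With litter C left out, 3 genes passed the adjusted threshold, all licensing factors and all higher in knockouts, while 0 were lower. Cdt1 rose by 0.74 ± 0.09 (adjusted p = 0.00697), Mcm3 by 0.48 ± 0.09 (adjusted p = 0.03) and Mcm6 by 0.37 ± 0.08 (adjusted p = 0.0457, limma on 2 litters). With only the control of litter C left out and no litter term, Cdt1 alone passed (0.81, adjusted p = 0.00791, limma). Over the fits that left out a litter or an array, 0 to 1349 of all probe sets passed upward. The number for the fit without this control is not given here, so the Cdt1 call has no share beside it. In the fit on 2 litters, 3% of all probe sets passed upward and 3.14% downward. The median log2 change was then 0.11 over the 33 genes and 0.27 over the 10 licensing genes. Orc1 gave 0.55 (adjusted p = 0.125). With litter A or litter B left out instead, 0 of the 33 genes passed. Without litter B, 0 probe sets passed in either direction, and the Gpx4 probe set described first passed in neither of these fits. They therefore cannot show whether the 3 calls depend on litter C in particular. That litter C stands apart was known before the fit without it was made, so the 3 calls give no independent support to the direction of the set.

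Log2 changes were also set beside the promoter words. The 13 genes with a word in the window had a median log2 change of 0.14 (by litter 0.10, 0.25 and -0.19), and the 16 measured genes whose windows held none had a median of -0.01 (0.06, 0.12 and -0.13). Both groups thus had a median above 0 in litters A and B and below 0 in litter C. These are descriptions without a test.

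The rest of the replication machinery gave similar counts. Of 52 further replication genes, 50 were measured and 0 passed the adjusted threshold in limma, with 5 higher and 1 lower at an unadjusted p below 0.05 and a median log2 change of 0.05. At that p, 7.04% of all probe sets were higher and 7.6% lower. Samhd1, which degrades deoxynucleotides, read 27.2, 33.5 and 73.5 in controls and 63.1, 79.2 and 93.3 in knockouts (0.70 ± 0.17, adjusted p = 0.152, limma). Dctd, a deaminase on the route to thymidylate, read 18.7, 19.6 and 65.3 in controls and 52.1, 54.6 and 66.8 in knockouts (0.66 ± 0.23, adjusted p = 0.259). In both, the control of litter C was again the highest control. Both passed in limma with litter C left out (adjusted p = 0.0244 and 0.0285), where 3% of all probe sets passed upward. The large primase subunit Prim2 read 94.9, 92.6 and 91.2 in controls and 121, 117 and 135 in knockouts, with no overlap (0.37 ± 0.11). The origin subunit Orc2 read 85.2, 90.4 and 123 against 115, 131 and 139 (0.33 ± 0.12).

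Among other regulators of the G1/S transition, which include cyclins, kinases, pocket proteins, E2F factors and E2F targets, 30 measured genes held 0 genes past the adjusted threshold in limma, 6 higher and 4 lower at an unadjusted p below 0.05, and a median log2 change of 0.12. The same p took 7.04% of all probe sets upward and 7.6% downward. Ccnd1, the cyclin D that links growth factor signals to the retinoblastoma protein, read 646, 595 and 790 in controls and 1150, 1006 and 978 in knockouts (0.62 ± 0.12, adjusted p = 0.0903, limma). Its kinase partner Cdk6 read 309, 323 and 441 against 492, 469 and 546 (0.49 ± 0.10, adjusted p = 0.107), and E2f5, a repressing E2F factor, 118, 96.8 and 117 against 180, 145 and 163 (0.50 ± 0.10, adjusted p = 0.114). These 3 genes were picked by smallest p. In each, every knockout was above every control, as for 6 of the 30 genes and 8.78% of all probe sets. The 3 passed with litter C left out, as did 2 lower genes of this list. In that fit 3% of all probe sets passed upward and 3.14% downward. Ccna2, the cyclin of S phase and early mitosis, lay the other way at 335, 385 and 453 against 279, 311 and 351 (-0.30 ± 0.09, adjusted p = 0.197).

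The inhibitors that oppose these cyclin kinases were examined as a list of 7. Of the 7, 0 passed the adjusted threshold in limma, 0 were higher and 4 lower at an unadjusted p below 0.05, and the median log2 change was -0.39. Over all probe sets, 7.04% were higher and 7.6% lower at that p. Cdkn2c, which encodes p18, read 102, 118 and 107 in controls and 48.8, 57.3 and 67.2 in knockouts, with no overlap (-0.77 ± 0.13, adjusted p = 0.078, limma). Cdkn1b, which encodes p27, read 246, 200 and 218 against 159, 156 and 155, also with no overlap (-0.46 ± 0.10, adjusted p = 0.131). Cdkn2b, which encodes p15, read 180, 187 and 85.8 against 80.1, 83.9 and 89.6, a difference found in litters A and B and not in litter C (-0.67 ± 0.23, adjusted p = 0.261). Without litter C, 3 inhibitors passed as lower, Cdkn2b, Cdkn2c and Cdkn2d, where 3.14% of all probe sets did. That fit was made knowing that litter C stands apart. Cdkn2d read 138, 148 and 96.9 against 90.5, 99.6 and 87.2 (-0.39 ± 0.13). Cdkn1a, the p21 gene induced by p53, read 1675, 1944 and 1298 against 1971, 1734 and 1427 (0.07 ± 0.10). Cdkn1c was dim, at 14.0, 18.2 and 18.7 against 20.7, 23.0 and 7.22 (-0.03 ± 0.21), and Cdkn2a dimmer still, at most 6.62 on any array (0.01 ± 0.12).

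Among genes of mitosis, the phase that follows replication in the cycle, most log2 changes were below 0. Of 39 measured, 0 passed the adjusted threshold in limma, but 18 were lower and 1 higher at an unadjusted p below 0.05, a threshold that 7.6% and 7.04% of all probe sets passed. A log2 change below 0 was found for 35 of the 39, beside 14 of the 33 replication genes and 22329 of the 45037 probe sets. Their median log2 change was -0.21, with -0.27, -0.21 and -0.21 by litter, so that the litters that differed on replication genes gave one direction on mitosis genes. Ccnb2, a mitotic cyclin, read 412, 451 and 378 in controls and 266, 273 and 252 in knockouts (-0.62 ± 0.09, adjusted p = 0.0572, limma). Cdc20, which activates the anaphase-promoting complex, read 1300, 1386 and 1279 against 868, 1043 and 1010 (-0.44 ± 0.08). The proliferation marker Mki67 read 706, 676 and 725 against 483, 541 and 553 (-0.41 ± 0.09), and the kinesin Kif20a 195, 203 and 193 against 138, 149 and 128 (-0.47 ± 0.10). These 4 genes were picked by smallest p. In each, every knockout lay below every control, as for 18 of the 39 mitosis genes and 9.45% of all probe sets. With litter C left out 5 mitosis genes passed as lower (3.14% of all probe sets), Ccnb2, Cdc20 and Mki67 among them. The difference between the lists was not tested.

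**Figure D4:**
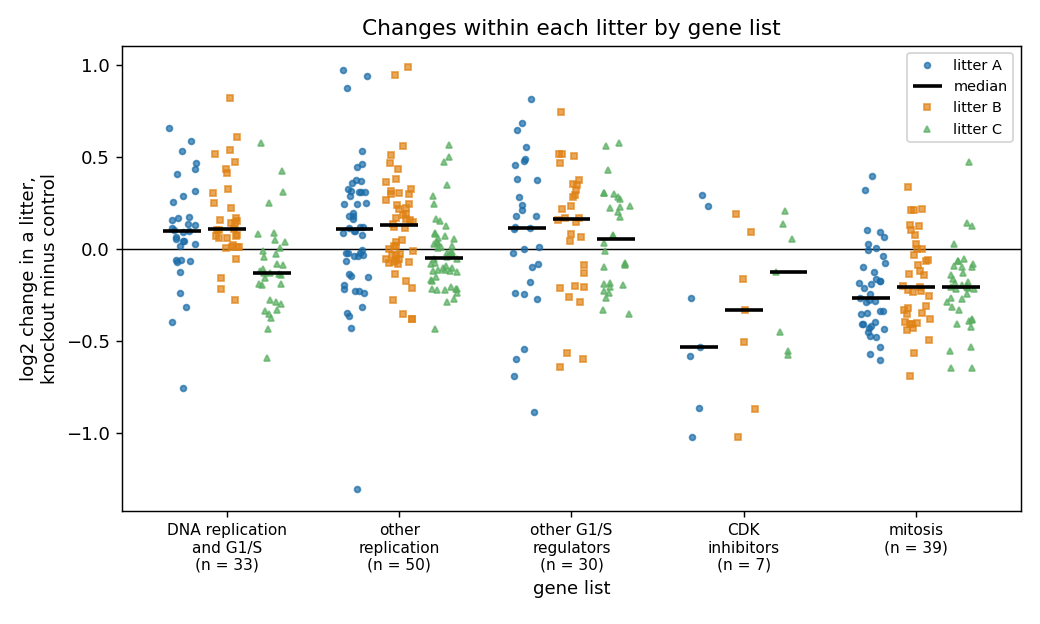
Log2 change of intensity + 16, knockout minus control, in litters A (blue circles), B (orange squares) and C (green triangles) for 5 gene lists; each symbol is 1 gene and black bars are medians. Medians of the replication and G1/S genes were 0.10, 0.11 and -0.13 in the 3 litters and those of the mitosis genes -0.27, -0.21 and -0.21.

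The scaling of the arrays sets where 0 lies for a set of this kind. On the intensities as deposited the median of the 33 genes was -0.11 and only 7 were above 0, and with the arrays shifted to a common median it was -0.05 with 9 above 0. The median of all probe sets with a mean above 50 moved in the same way, from 0.01 after quantile normalization to -0.18 and -0.12. Relative to that median the 33 genes lay at 0.05, 0.07 and 0.07 under the 3 scalings, the licensing genes at 0.15, 0.16 and 0.16, and the mitosis genes at -0.22, -0.21 and -0.21. The sign of the set's own median therefore depended on the scaling. A shift moves all genes alike, so the gaps between lists are the same by construction in the deposited and shifted values.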

How the data were processed

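The deposited values are single-channel array intensities on a linear scale, with 1 value for each probe set on each array. The authors' software and scaling are not stated in the labels. Intensities were quantile normalized over all probe sets and 6 arrays, control probe sets were removed, and log2(intensity + 16) was fitted in limma 3.58.1 (R 4.3.3) with litter as a block and a trended prior variance. Probe sets with an adjusted p below 0.05 (Benjamini-Hochberg over 45037 probe sets, two-sided) count as called, with no filter on dim probe sets. The litter pairs samples by design, since both groups came from the same litters; residuals of litter partners correlated at 0.17, 0.05 and 0.21 in litters A, B and C. No source says that the pools were made from separate cultures beyond the litter. With the litter as a block, p-values measure the spread of the knockout minus control differences of these 3 litters, combined with the prior variance.

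Genes were named from the platform annotation, through probe sets with 1 symbol, taking the brightest by mean over the 6 arrays. Values on every array are given for Gpx4, any replication gene past the threshold, the 3 genes of smallest p in each role, the 4 of smallest p in each other list, and all CDK inhibitors (for Cdkn2a, the highest value); markers of other cells are given as sums and counts. Mcm6, Trp63, Col17a1 and further probe sets were added after their values were seen. The members and all lists were chosen with earlier results of these data known. The fit was checked on simulated data. Promoters are RefSeq's on GRCm38.p6. The number of arrays limits the precision. Alternatives tried were the scaling, the pseudocount, a filter on dim probe sets, the mean of a gene's probe sets, the variance trend, the block and leaving out litters or arrays.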

Additional observations from a re-analysis of the deposited data

How the results depend on the processing

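In each alternative run on all 3 litters, 0 of the 33 replication and G1/S genes passed the adjusted threshold in limma. Leaving out a litter or an array gave 0 to 3 higher, a median from -0.02 to 0.14, and 1 called gene, Cdt1, without the control of litter C; the alternatives that leave out single arrays, which carry no litter term, were chosen after seeing the data. On intensities as deposited the median of the set was -0.11.

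Called probe sets, 71 higher and 118 lower, became 3 and 32 as deposited, 198 and 512 with arrays shifted to 1 median, 265 and 329 with pseudocount 1, 27 and 32 with pseudocount 64, 521 and 611 without the 40% dimmest, 0 (3189 at an unadjusted p below 0.05) and 6 with no variance trend, and 0 to 1349 and 0 to 1412 when a litter or array was left out, the 0 without litter B (1822 and 1880 at an unadjusted p below 0.05). Without the litter as a replicate block they were 60 and 75, and the block changed no other call described here. Gpx4 stayed between -1.34 and -1.02 but lost its call as deposited (adjusted p = 0.122, limma), with no variance trend (0.1), and without litter A (0.15) or litter B (0.276). The medians became -0.15 as deposited and -0.089 shifted for other replication genes, -0.082, -0.023 and (mean of all probe sets) 0.051 for other G1/S regulators, and -0.39, -0.33 and -0.16 for mitosis genes, with -0.16 at pseudocount 64; leaving out a litter or array gave 0.038 to 0.18 for G1/S regulators and -0.26 to -0.19 for mitosis genes. Of CDK inhibitors, 1 was called lower after the shift, with pseudocount 1 and without the dimmest probe sets; of mitosis genes, 1 with pseudocount 1 and 2 without the dimmest; of other G1/S regulators, 1 higher without the dimmest. With a litter or array left out, other replication genes held 0 to 2 higher, other G1/S regulators 0 to 3 higher and 0 to 2 lower, CDK inhibitors 0 to 3 lower and mitosis genes 0 to 5 lower.

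Genes near 0 changed sign: as deposited, Gins2 was -0.050, Gins1 -0.076, Pola1 -0.061, Tk1 -0.082, Rrm1 -0.11, Ccne1 -0.10, Cdkn1a -0.091 and Cdkn2a -0.0074; after the shift, Gins1 was -0.017, Pola1 -0.0018, Tk1 -0.022, Rrm1 -0.050, Ccne1 -0.043 and Cdkn1a -0.031. Cdkn2a was -0.047 with pseudocount 1, and Cdc45 0.022 with the mean of its probe sets. With a litter or array left out, Gins2 ran from -0.0040 to 0.25, Gins1 from -0.075 to 0.42, Pola1 from -0.022 to 0.38, Pold1 from -0.29 to 3.59e-05, Pcna from -0.18 to 0.059, Tk1 from -0.011 to 0.37, Rrm1 from -0.010 to 0.18, E2f1 from -0.18 to 0.056, Ccne1 from -0.028 to 0.27, Cdkn1a from -0.088 to 0.20, Cdkn1c from -0.20 to 0.24 and Cdkn2a from -0.11 to 0.15. Scaling and the arrays used set these values by construction; the cause of the other moves was not tested. A planned search of the proteins for Pcna-binding motifs was not run.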
